A study of Mus musculus with 6 samples.

Results

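The 7 genes described here, ND1, ND2, ND3, ND4, ND4L, ND5 and ND6, are the complex I genes of the mouse mitochondrial genome. They were taken from the deposited expression table by their symbols, which the table gives in capitals and without the usual mt- prefix, and they are 7 of the 35425 genes whose rows could be read. All 7 also passed the filter on low values and are among the 9800 genes tested. The cells were bone marrow-derived macrophages (BMDMs), which the study grew from the femoral marrow of C57BL/6 mice with M-CSF for 7 days. They formed 3 Ctrl libraries without treatment and 3 ZA libraries, for which RNA was taken 12 h after stimulation with zoledronic acid (ZA), a nitrogen-containing bisphosphonate. The ZA concentration used for these libraries, and whether the 3 cultures of a group came from different mice, are not given in the sources used here, so the p-values measure only the spread between these samples. The study asked how ZA affects the mitochondria of macrophages, and the comparison of ZA with Ctrl addresses this at the level of RNA.

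Complex I is the largest enzyme of the respiratory chain. It takes electrons from NADH in a peripheral arm that lies in the matrix, passes them to ubiquinone, and pumps protons through a membrane arm. Its peripheral core subunits come from nuclear genes, while the core of the membrane arm is encoded by the mitochondrial genome. ND2, ND4 and ND5 are related to antiporters and each holds a proton channel. ND1 lies where the membrane arm meets the peripheral arm and forms part of the ubiquinone chamber, and ND3, ND4L and ND6 are small subunits next to it. The mitochondrial genome is transcribed from both strands as long precursors, which are cut at the tRNAs that lie between the genes. ND6 is the only protein gene read from the light strand, and the other members share the heavy-strand transcript with cytochrome b, the cytochrome oxidase genes and the ATPase genes. ND4L and ND4 remain together on one mRNA.

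In the GENCODE annotation of build GRCm38, ND1 lies at chrM:2751-3707, ND2 at chrM:3914-4951, ND3 at chrM:9459-9806, ND4L at chrM:9877-10173, ND4 at chrM:10167-11544 and ND5 at chrM:11742-13565, all on the plus strand. ND6 lies at chrM:13552-14070 on the minus strand. Each is a single exon without introns. The submitters' processing notes name build mm9, so these positions are those of the annotation and not of the deposited table. The restored gene lengths, from 297 bases in ND4L to 1824 bases in ND5, were equal to the annotated lengths for all 7 genes. The starts of the 7 coding sequences are given as mRNA sense, 5′ to 3′, because they show the different start codons, in capitals, and the base composition of the strands.

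ND1: GTGttctttattaatatcctaaca
ND2: ATAaatcctatcacccttgccatc
ND3: ATTaacctgtacactgttatcttc
ND4L: ATGccatctaccttcttcaacctc
ND4: ATGctaaaaattattcttccctca
ND5: ATCaatattttcacaacctcaatc
ND6: ATGaataattatatttttgtttta

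Only ND4L, ND4 and ND6 started with ATG among the 7, and ND1, ND2, ND3 and ND5 had the codons GTG, ATA, ATT and ATC. ND4 ended with a single T after its last whole codon, an incomplete stop codon that is completed by the poly(A) tail, while the other 6 genes ended with TAA or TAG. The 6 plus-strand members were poor in G, with 7.996% in ND2 to 11.6% in ND1, and held 22.1% C in ND3 to 30.0% C in ND4L. In ND6 this was the other way round, with 28.1% G, 5.97% C and 43.7% T. The total of G and C was similar, at 34.1% in ND6 and 33.05% to 41.1% in the others.

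Neighbouring members overlap at 2 places. These joints are shown because fragments that cross them can be assigned to either gene, and the capitals mark the shared bases on the plus strand.

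ND4L into ND4, chrM:10156-10184: aacctactacaATGCTAAaaattattctt
ND5 into ND6, chrM:13544-13573: atactcaaTTAATCTCGAGTAAtctcgata

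The 7 shared bases of the ND4L and ND4 joint hold the start codon ATG of ND4 and the stop codon TAA of ND4L. At the 14 shared bases of ND5 and ND6 the genes run towards each other, so that TAA at the right end of the capitals is the stop codon of ND5, and TTA at the left end is the stop codon of ND6 read from the other strand. Whether strand was used in counting is not given in the sources used here. If it was not, reads of ND6 and reads of the heavy-strand transcript that runs antisense to ND6 cannot be told apart.

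ND3, ND4L and the front part of ND4 also occur in the nuclear genome, in a stretch of mitochondrial sequence that is annotated on chromosome 1 as a row of unprocessed pseudogenes. Every run of 150 bases, the read length, was searched on both strands of the annotated nuclear transcripts. Of the 199 such stretches of ND3, 97.0% were found in the pseudogene Gm28438 (chr1:24612775-24613119, minus strand). For ND4L, 98.0% of 148 stretches were found in Gm10222 (chr1:24612407-24612700), and for ND4, 59.2% of 1229 stretches in Gm28439 (chr1:24611535-24612410). No stretch of ND1, ND2, ND5 or ND6 was found in a nuclear transcript. Gm10222 was identical to ND4L over all its 294 bases and Gm28439 to the first 876 bases of ND4. Gm28438 was identical to ND3 in 344 of 345 bases, and its single difference is T3C, counted from the 5′ end of the coding sequence, with the mitochondrial base named before the nuclear one. The start of both is shown with this base in capitals.

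ND3: atTaacctgtacactgttatcttc
Gm28438: atCaacctgtacactgttatcttc

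Both copies of ND3 and ND4L end 3 bases before the mitochondrial gene does, at its stop codon. None of these pseudogenes has a row among the rows that could be read. The search covered annotated transcripts and not the whole nuclear genome.

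The libraries were of similar depth, with 41230600 to 42155808 fragments each. The macrophage markers were present, with Adgre1, Csf1r and Cd68 among the 8 listed, and their summed FPKM was between 23609 and 28005 in the 6 libraries, with 1 of 8 lower on average in ZA. Most of this sum was Lyz2. Markers of other cells had lower sums, but not every one was below every macrophage marker. The osteoclast marker Ctsk was at 28 FPKM in Ctrl and 27.1 in ZA, and the macrophage marker Mertk at 24.2 and 23.7. The summed FPKM of 9 neutrophil and granulocyte progenitor markers was 34.6 to 49.7 in Ctrl and 30.8 to 35.9 in ZA, with 8 of 9 lower on average in ZA and Ly6g at 0 in all libraries. That of 4 stromal markers was 17.4 to 31.1 in Ctrl and 15.7 to 22.4 in ZA, with all 4 lower on average. Of 5 osteoclast markers, 3 were lower on average in ZA, with sums of 41.0 to 48.0 in Ctrl and 39.1 to 43.0 in ZA. Of 5 T and B cell markers, 4 were lower on average, with sums of 0.670 to 1.01 in Ctrl and 0.346 to 0.633 in ZA. For 3 erythroid markers, all lower on average, the sums were 0.380 to 2.61 in Ctrl and 0.777 to 1.82 in ZA. The part of these markers in the results for the 7 genes was not tested. In bulk RNA, fewer cells of a type and less RNA per cell cannot be told apart.

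The 7 genes spanned a wide range of FPKM, which is the number of fragments scaled by gene length and by the fragments of the library, and within a Ctrl library ND1 was 735-fold to 1436-fold above ND6. In Ctrl the mean level was 2104 ± 64.3 in ND1 (SD, n = 3, as for all means here), 1238 ± 15.1 in ND5, 1041 ± 13.98 in ND2 and 765 ± 24.1 in ND4. By mean FPKM over the 6 libraries, ND1 had rank 19 in the whole table. Far below came ND3 with 9.47 ± 1.30, ND4L with 7.51 ± 2.03 and ND6 with 2.02 ± 0.823. ND4, the lowest of the abundant 4, stood 80.8-fold above ND3 in mean FPKM. The order was the same in ZA, and neighbours in this order had ranges that did not overlap within either group, with the exception of ND3 and ND4L. Together ND3, ND4L and ND6 gave 203 to 345 of the 227348 to 273317 fragments of the 7 genes in a library, 0.0848% to 0.126% of them.

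The low members differ in sequence. ND3 and ND4L are the 2 members that are shared nearly whole with nuclear transcripts, and COX2, COX3 and ATP6, of which 99.4% to 99.8% of the stretches were found there, were also low for mitochondrial genes, at 45.9 ± 1.13, 35.1 ± 4.61 and 25.9 ± 8.01 FPKM in Ctrl. ND4 and ND4L, which are read from one mRNA, differed 80.2-fold to 125-fold in FPKM within a library. ND4 holds 502 bases beyond its nuclear copy. ND6 had the lowest FPKM of all without any shared stretch, and it is the light-strand gene. ATP8, also without a shared stretch among the annotated transcripts, was at 3.37 ± 0.575. The low genes were also the short ones, with 204 bases in ATP8 to 784 in COX3, against 957 in ND1 to 1824 in ND5 for the abundant ones. The part of the shared sequence or of gene length in these levels was not tested.

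**Figure D1:**
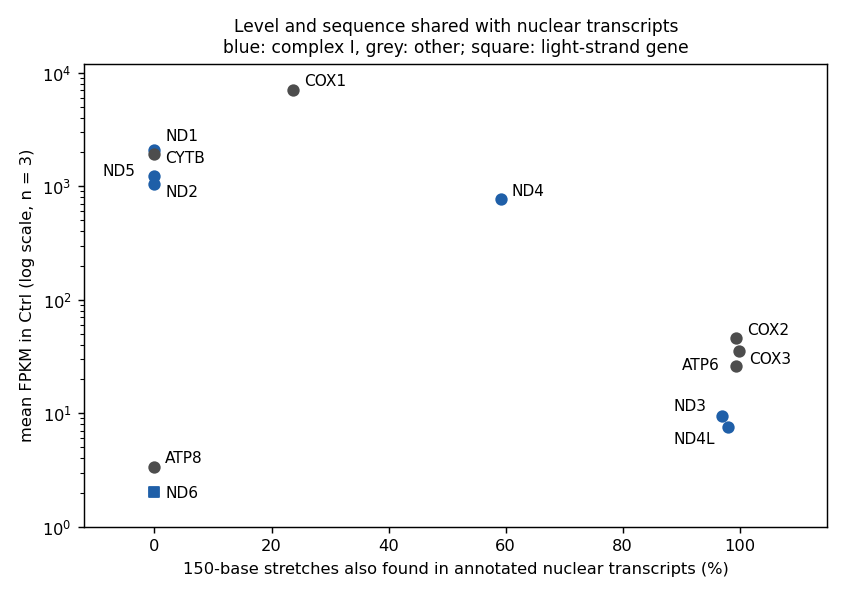
Mean FPKM in the 3 Ctrl libraries (log axis) of the 13 mitochondrially encoded protein genes against the percentage of their 150-base stretches found in annotated nuclear transcripts. ND3 and ND4L lie at 97.0% and 98.0% with 9.47 and 7.51 FPKM, ND4 lies at 59.2% with 765 FPKM, and ND6, the square, lies at 0 with 2.02 FPKM.

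All 7 genes had a lower mean in ZA-treated BMDMs, by 11.6% to 28.1% of the Ctrl mean. The abundant members ND1, ND2, ND4 and ND5 were lower in every ZA library than in any Ctrl library, and for ND3, ND4L and ND6 the groups overlapped. ND2 fell at an adjusted p under 0.05 with limma. With the unadjusted p of limma under 0.05, ND1, ND2, ND3, ND4 and ND5 passed, of which ND3 dropped out without Ctrl 1, without ZA 1, without ZA 2, without a filter and with voom. The background for these counts was 0.163% of the 9800 genes lower at an adjusted p under 0.05, 4.85% lower at an unadjusted p under 0.05, and 6.76% lower without overlap, against 1, 5 and 4 of the 7 members. Centring on the median changed the background at an unadjusted p under 0.05 from 4.85% lower and 7.50% higher to 6.78% lower and 5.18% higher, with 5 members lower as before. The median log2 fold change of the 7 was -0.20, beside 0.01 for all genes tested, of which 43.1% were below 0.

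ND1 had an FPKM of 2177, 2082 and 2054 in Ctrl 1, 2 and 3, and of 1880, 1894 and 1806 in ZA 1, 2 and 3. All ZA libraries were thus below all Ctrl libraries, and the means were 2104 ± 64.3 and 1860 ± 47.2. On the log2(FPKM + 1) scale this was a difference of -0.18 (standard error 0.029, limma, unadjusted p = 0.000240, adjusted p = 0.0574), and with quantile normalization it was -0.10.

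ND2, the smallest of the antiporter-like subunits, was at 1050, 1048 and 1025 FPKM in Ctrl and at 910, 943 and 892 in ZA. The Ctrl values lay close together, and the closest libraries of the groups, Ctrl 3 and ZA 2, were still apart. The log2 fold change was -0.19 (standard error 0.025, limma, adjusted p = 0.0453). In Ctrl 1, 2 and 3 the FPKM of ND4 was 791, 743 and 762, and ZA 1, 2 and 3 had 675, 676 and 624, with a log2 fold change of -0.22 (standard error 0.037, limma, unadjusted p = 0.000329, adjusted p = 0.0673). ND5, the last gene of the heavy-strand members, had 1255, 1233 and 1226 FPKM in the Ctrl libraries, against 1137, 1110 and 1027 in the ZA libraries. Its log2 fold change was -0.18 (standard error 0.036, limma, unadjusted p = 0.000942, adjusted p = 0.0942). In ND1, ND2, ND4 and ND5 alike, ZA 3 had the lowest FPKM of the 6 libraries and Ctrl 1 the highest.

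ND3, whose matrix loop takes part in the switch between the active and the resting form of the enzyme, had 10.96, 8.78 and 8.67 FPKM in Ctrl and 6.62, 7.39 and 8.73 in ZA. ZA 3 lay within the Ctrl range here. The log2 fold change was -0.29 (standard error 0.105, limma, unadjusted p = 0.0246, adjusted p = 0.328), and it was -0.19 without Ctrl 1. The unadjusted p was 0.0787 without Ctrl 1, 0.0835 without ZA 1, 0.0668 without ZA 2, 0.0580 without a filter and 0.0648 with voom (limma). These values rest on 95 to 159 fragments per library, for which the exact Poisson 95% interval was 76.9 to 116 fragments in ZA 1 and 135 to 186 in Ctrl 1. Such intervals cover counting error only.

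The 3 Ctrl libraries had 9.86, 6.40 and 6.29 FPKM of ND4L, and the 3 ZA libraries 7.92, 5.42 and 5.67. In both groups library 1 was the highest, and ZA 1 was above Ctrl 2 and Ctrl 3. The log2 fold change of -0.20 had a standard error of 0.171 (limma, unadjusted p = 0.266, adjusted p = 0.668) and a 95% interval from -0.60 to 0.19, and the value was -0.02 without Ctrl 1, -0.12 without ZA 2 and -0.35 without ZA 1. Ctrl 1 held 122 fragments of ND4L (95% interval 101 to 146) and Ctrl 3 held 78 (61.7 to 97.3).

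ND6, the light-strand gene, had 2.96, 1.67 and 1.43 FPKM in Ctrl and 1.73, 1.34 and 1.28 in ZA. Again library 1 was the highest in each group, and the groups overlapped. The library of Ctrl 1 held 64 fragments of ND6 (95% interval 49.3 to 81.7), against 31 in Ctrl 3 (21.1 to 44.0) and 28 in ZA 3 (18.6 to 40.5). The log2 fold change was -0.27 (standard error 0.167, 95% interval -0.66 to 0.11, limma, unadjusted p = 0.142, adjusted p = 0.544), and it was -0.06 without Ctrl 1 and -0.41 without Ctrl 3, where the unadjusted p was 0.0357 and the adjusted p 0.371. With voom the value was -0.41 (unadjusted p = 0.179). The interval of ND6 includes the log2 fold changes of the 6 heavy-strand members, and a difference between the strands was not tested.

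**Figure D2:**
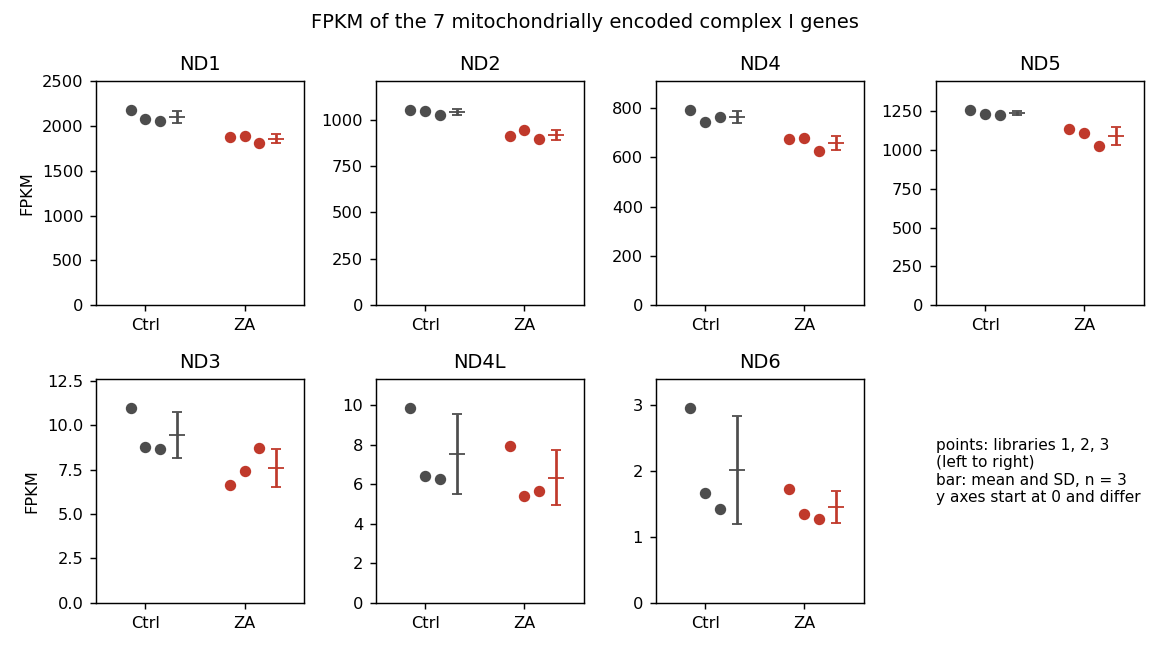
FPKM of each member in the 3 Ctrl libraries (grey) and the 3 ZA libraries (red), with the mean and SD of each group; the y axes start at 0 and differ between panels. The groups are apart in ND1, ND2, ND4 and ND5 and overlap in ND3, ND4L and ND6. Ctrl 1 is the highest library in every panel, with 10.96, 9.86 and 2.96 FPKM in ND3, ND4L and ND6.

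The call of ND2 was lost when any of the 6 libraries was left out. Its adjusted p then ran from 0.0518 without ZA 1 to 0.200 without Ctrl 2 (limma). Its unadjusted p was 4.93e-05 without ZA 2 to 0.000682 without Ctrl 2 (limma). In these fits 0 to 0.112% of all genes were lower at an adjusted p under 0.05, against 0.163% with all 6 libraries. The call was also lost without a filter, with quantile normalization and without a variance trend. Over the alternatives the number of members with an adjusted p under 0.05 was between 0 and 4, while all log2 fold changes of the 7 genes stayed below 0 under each of them. ND6 was not tested under a filter of a mean FPKM of 5.

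The proportions of the abundant members to each other overlapped between the groups. Within a library, FPKM of ND1 was 1.99-fold to 2.07-fold that of ND2 in Ctrl and 2.01-fold to 2.07-fold in ZA, and 1.68-fold to 1.73-fold that of ND5 in Ctrl and 1.65-fold to 1.76-fold in ZA. ND5 stood 1.59-fold to 1.66-fold above ND4 in Ctrl libraries, against 1.64-fold to 1.68-fold in ZA libraries. For all pairs of the 7 genes, the ratios of the groups overlapped. By fragments, ND5 made up 34.7% to 36.1% of the 7 genes in a library, ND1 31.1% to 32.1%, ND2 16.4% to 17.2% and ND4 15.9% to 16.6%.

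As a share of the library, the 7 genes held 0.656%, 0.636% and 0.632% of all fragments in Ctrl 1, 2 and 3, and 0.575%, 0.575% and 0.539% in ZA 1, 2 and 3. The share was thus lower in all ZA libraries, by 0.19 as a mean log2 ratio. Among the fragments of all 13 mitochondrially encoded protein genes, the 7 held 32.2% to 32.9% in Ctrl and 30.6% to 31.6% in ZA, a mean log2 ratio of -0.076. COX1 weighs heavily in this denominator, with 463143 of the 834112 fragments of the 13 genes in Ctrl 1.

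The other 6 mitochondrially encoded genes also all had log2 fold changes below 0, but not all of the same size. Their median was -0.29, beside -0.20 for the 7 members. Of these 6, 4 were lower at an unadjusted p under 0.05 and 3 at an adjusted p under 0.05 (limma). The background was 4.85% and 0.163% of all genes tested. COX1, the catalytic subunit of cytochrome oxidase and the most abundant of the 13, was at 7096 ± 130 FPKM in Ctrl and 6938 ± 254 in ZA, with a log2 fold change of -0.03 (standard error 0.029, 95% interval -0.10 to 0.03, limma, adjusted p = 0.691). CYTB, the mitochondrial subunit of complex III, which lies next to ND6 on the other strand, fell from 1928 ± 42.8 to 1569 ± 83.3 FPKM, a log2 fold change of -0.30 (standard error 0.038, limma, adjusted p = 0.0433). COX2 fell by 0.27 on the log2 scale (limma, adjusted p = 0.0487) and COX3 by 1.11 (limma, adjusted p = 0.00449), and ATP6 and ATP8 had differences of -0.50 (limma, adjusted p = 0.360) and -0.02 (limma, adjusted p = 0.970). With COX1 of the same library as the reference, ND1 was at 28.7% to 30.3% of the FPKM of COX1 in Ctrl and 26.0% to 27.8% in ZA. ND2 was at 14.3% to 15.1% and 12.6% to 13.8%, ND4 at 10.7% to 10.99% and 9.23% to 9.91%, and ND5 at 17.2% to 17.7% and 15.2% to 16.3%. The groups were apart in all 4 of these ratios and overlapped in those of ND3, ND4L and ND6. The share of all genes that are apart by this ratio was not computed.

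**Figure D3:**
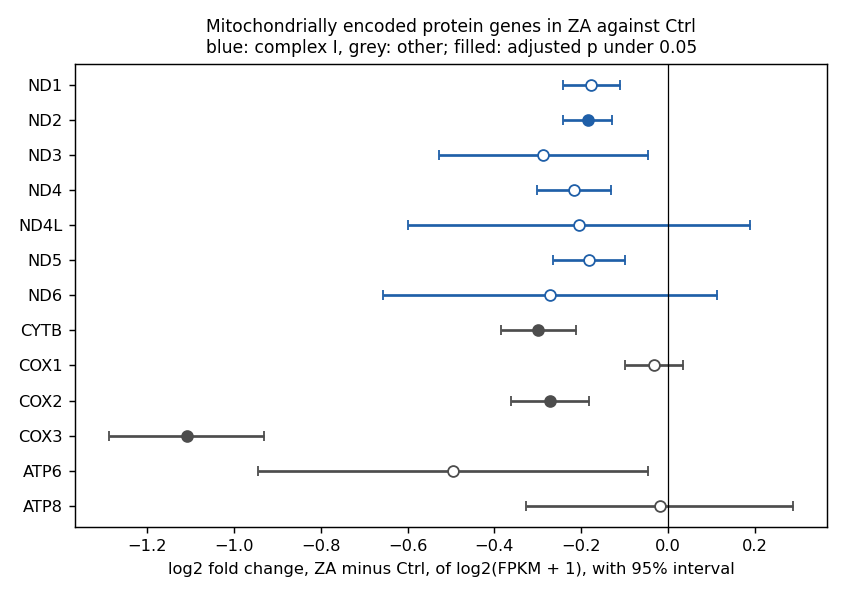
Log2 fold change of ZA against Ctrl on the log2(FPKM + 1) scale with its 95% interval from limma for the 7 complex I genes (blue) and the 6 other mitochondrially encoded protein genes (grey), filled where the adjusted p is under 0.05. The 7 members lie between -0.29 and -0.18, with wide intervals across 0 in ND4L and ND6, while COX1 lies at -0.03 and COX3 at -1.11.

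The nuclear genes of complex I were listed to set beside the mitochondrial ones. All 37 listed subunit genes were tested, 7 of them core subunits and 30 accessory subunits. At an unadjusted p under 0.05 (limma), 2 were lower and 3 were higher, shares of 5.41% and 8.11% against the background of 4.85% lower and 7.50% higher, and 0 passed at an adjusted p under 0.05, with voom on the recovered fragments also 0. Their median log2 fold change was -0.03, and 28 of 37 (75.7%) were below 0, against 43.1% of all genes tested. The 3 with the largest moderated statistic were Ndufb2, an accessory subunit of the membrane arm, Ndufa8, an accessory subunit on the side of the intermembrane space, and Ndufs7, the core subunit that carries the last iron-sulfur cluster before ubiquinone. Ndufb2 was at 13.05 ± 0.384 FPKM in Ctrl and 14.8 ± 0.512 in ZA, a log2 fold change of 0.17 (limma, adjusted p = 0.113). Ndufa8 was at 58.0 ± 0.478 and 54.3 ± 1.18 FPKM, a log2 fold change of -0.09 (limma, adjusted p = 0.194). Ndufs7 had a log2 fold change of 0.11 (limma, adjusted p = 0.236). The number of lower subunit genes at an unadjusted p under 0.05 varied with the libraries used. It was 8 without ZA 2 (background 4.24%), 4 without Ctrl 1 (background 4.02%), 1 without Ctrl 2 (background 3.71%) and 1 without ZA 1 (background 5.61%). The number of higher ones was 6 without ZA 1, where the background was 8.65%.

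Of the 18 listed assembly factors of complex I, 16 were tested, and 0 passed at an unadjusted p under 0.05 in either direction (limma), and 0 with voom. Leaving out Ctrl 3 gave 1 higher gene (background 7.10%) and leaving out ZA 3 gave 1 lower gene (background 3.86%). The median log2 fold change was -0.01. Acad9, which acts in the assembly of the membrane arm, Ndufaf3 and Ndufaf2 had the largest moderated statistics, with log2 fold changes of 0.07, 0.09 and -0.14 and adjusted p-values of 0.539, 0.655 and 0.670 (limma).

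Of 37 genes that act in the transcription, RNA processing, RNA stability or replication of mitochondrial DNA, 34 were tested. At an unadjusted p under 0.05 (limma), 2 were higher and 0 were lower, 5.88% higher against a background of 7.50%, and 0 passed at an adjusted p under 0.05, with voom also 0. Their median log2 fold change was 0.03, and 10 of 34 (29.4%) were below 0, against 43.1% of all genes tested. Mterf4, a member of the MTERF family that acts on mitochondrial ribosome assembly, was at 5.98 ± 0.307 FPKM in Ctrl and 7.17 ± 0.101 in ZA, a log2 fold change of 0.23 (limma, adjusted p = 0.0785). Rexo2, which degrades short RNA fragments, and Dguok, a kinase that supplies deoxynucleotides for mitochondrial DNA, had log2 fold changes of 0.08 and 0.10 (limma, adjusted p = 0.333 and 0.405). Tfam, which packages mitochondrial DNA and starts its transcription, had 0.08 (limma, adjusted p = 0.529), and Lrpprc, which stabilises mitochondrial mRNAs, also 0.08 (limma, adjusted p = 0.422). Slirp and Top1mt of the same list went the other way, with log2 fold changes of -0.14 and -0.16 (limma, adjusted p = 0.542 and 0.578). Tfam and Lrpprc were named for their role, and Slirp and Top1mt for their direction, all after their values were seen. The number of higher genes was 1 without Ctrl 2 (background 6.01%) or without ZA 2 (background 5.68%) and 4 without Ctrl 3 (background 7.10%) or without ZA 3 (background 5.87%). Without Ctrl 2 or without ZA 2, 1 gene was lower, with backgrounds of 3.71% and 4.24%.

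**Figure D4:**
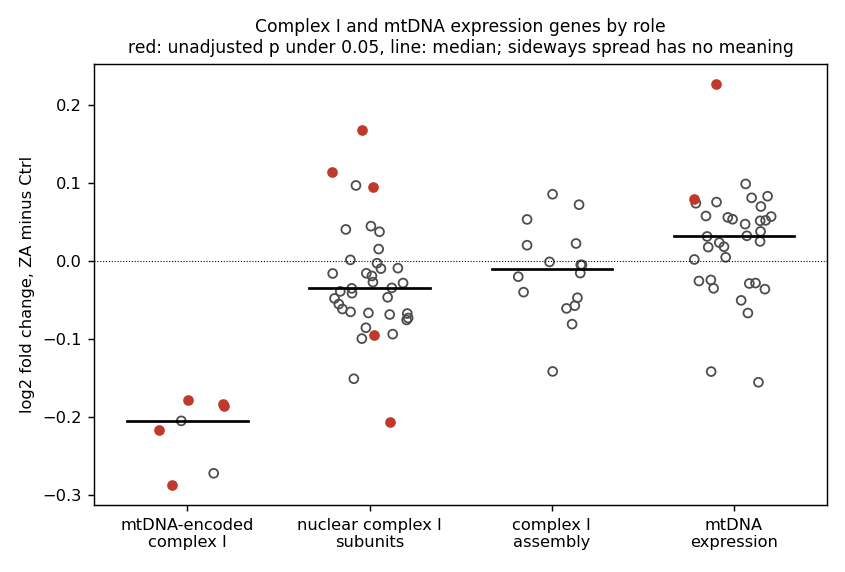
Log2 fold changes of the 7 mitochondrially encoded complex I genes, the 37 nuclear subunit genes, 16 assembly factors and 34 genes of mitochondrial DNA expression, one point per gene, red where the unadjusted p of limma is under 0.05, with the median as a line. The medians are -0.20, -0.03, -0.01 and 0.03.

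The nuclear genes whose pattern over the 6 libraries was most like the mean z-score of the 7 members were Pi4k2a, Anxa2, Tmem9b, Fbxo22 and Pltp, with Pearson's r of 0.997, 0.992, 0.983, 0.982 and 0.981 between log2(FPKM + 1) and this score. These values describe 6 libraries in 2 groups, so that any gene that differs between the groups can reach a high r. The score was highest in Ctrl 1 with 1.38, and lowest in ZA 3 with -0.98. The members are part of the score, so that their r includes their own values and cannot be set against that of other genes. It was 0.977 for ND1, 0.9496 for ND4, 0.913 for ND5, 0.900 for ND2, 0.849 for ND6, 0.740 for ND4L and 0.737 for ND3. Of the mitochondrial genes outside the score, COX3 and CYTB had r of 0.944 and 0.939, COX2 had 0.784, COX1 had 0.621, ATP6 had 0.548 and ATP8 had 0.06.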

How the data were processed

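RNA-seq libraries of 150 bp paired-end reads were made from 3 Ctrl and 3 ZA cultures, grouped here by the sample titles. Both a VAHTS and a SMARTER kit are named in the labels. Expression was deposited by the authors as FPKM values in a single table, and the aligner, the counting program and the annotation are not given in the sources used here. Separators were intact in 11 of its 35434 rows. The remaining rows were split where the digits allowed, using that FPKM times gene length and library total must give whole fragments, and 9 rows stayed unread. The 11 intact rows were read identically by this rule. FPKM values were log2-transformed with a pseudocount of 1 and compared in limma 3.58.1 (R 4.3.3, variance trend, two-sided) for the 9800 genes whose mean FPKM was 1 or more. P-values were adjusted by Benjamini-Hochberg over these genes. The pseudocount understates changes of low genes. The fit was tested on simulated data, and the outcome is not reported here. Libraries of one group were not duplicates. Nuclear sequence was searched in GENCODE M21 transcripts, and coordinates are GRCm38. The genes named are the 7 members, the other mitochondrial protein genes, of each list those with an adjusted p under 0.05 or else the 3 with the largest moderated statistic, and the 5 most alike nuclear genes. Tfam, Lrpprc, Slirp and Top1mt were named outside this rule. The members and lists were chosen with earlier results of these data known. As alternatives, the pseudocount was set to 0.1, the filter was left out or set to 5, values were centred on medians or quantile-normalized, the variance trend was dropped, a replicate block was added, voom was run on recovered fragments, and each library was left out.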

Additional observations from a re-analysis of the deposited data

How the results depend on the processing

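The number of the 7 genes lower in ZA at an adjusted p under 0.05 (limma), 1 as reported, was 0 without a filter, with quantile normalization and without a variance trend, 3 with a filter of a mean FPKM of 5, 4 with voom on the recovered fragments and 0 whichever library was left out. Of all genes tested, 0.163% were lower at this threshold as reported, 0.333% with the filter of 5 and 0.622% with voom. The share was 0.102% with quantile normalization, 0.0102% without a trend, 0 without a filter and 0 to 0.112% with libraries left out. ND1 and ND4 gained this call with the filter of 5, and ND1, ND4 and ND5 with voom. The number at an unadjusted p under 0.05 was between 4 and 7, where 3.71% to 6.78% of all genes were lower over the alternatives. The median log2 fold change was between -0.24 and -0.17 with libraries left out. The mean log2 ratio of the library share, -0.19, was between -0.20 and -0.16 with libraries left out, and -0.076 with the 13 mitochondrial genes as the denominator. With libraries left out, nuclear subunit genes at an unadjusted p under 0.05 numbered 2 to 6 higher and 1 to 8 lower. Assembly genes numbered 0 to 1 in each direction, and genes of mitochondrial DNA expression 1 to 4 higher and 0 to 1 lower. The background in these fits was 5.68% to 8.65% higher and 3.71% to 5.61% lower. No log2 fold change of the 7 genes changed sign under any alternative run. Fewer genes were tested with the filter, and fewer libraries entered the fits with a library left out. The cause of these changes was not tested.

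When replicate numbers entered the fit as a block, 4 of the 7 genes (ND1, ND2, ND4 and ND5) were lower at an adjusted p under 0.05 (0.378% of all genes) and 7 at an unadjusted p under 0.05 (6.12% of all genes), and 5 subunit genes and 1 assembly gene were lower at an unadjusted p under 0.05. Libraries with the same number deviated from the group means with correlations of 0.284, 0.0393 and 0.280, computed over genes, for numbers 1, 2 and 3. Every library correlated best with its own number, but for number 2 only narrowly, as Ctrl 2 and ZA 3 had a correlation of 0.0334. This is a hint from the data and not from the design, so the block was not used in the report. Depth limits ND3, ND4L and ND6, which had 28 to 159 fragments per library.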
